A study of Mus musculus with 14 samples.

Results

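The peaks described are the H3K27ac peaks that lie at promoters of long non-coding RNAs (lncRNAs) in the mouse retina at embryonic day 14 (E14). A peak was taken when its span overlapped the 1000 bp on either side of a transcription start site (TSS) of a gene annotated as lincRNA, antisense or processed_transcript on chromosomes 1 to 19 of the mm9 assembly. This rule uses position alone and found 930 peaks among 13079 on these chromosomes and 13463 in the whole list, or 7.11% of the 13079 (95% Wilson interval 6.68 to 7.56%). A protein-coding TSS lay within 1000 bp of 737 of them, or 79.2%, and 193 had none, or 20.8% (18.3 to 23.5%). The annotation has no gene of the type antisense. Antisense RNAs occur in it as transcripts of lincRNA and processed_transcript genes, and by the start nearest its middle a peak was at a lincRNA gene in 600 cases and at a processed_transcript gene in 330.

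The study profiled open chromatin and gene expression in retinal cells of control and Lhx2 conditional knockout mice, and binding of the LIM-homeodomain factor LHX2 in retina. The 14 samples listed here cover open chromatin, gene expression and H3K27ac, and none is of LHX2 binding. The peaks come from 1 of them, chromatin immunoprecipitation with an antibody to H3K27ac in E14 retinas of the mouse strain CD1, for which the label names no genotype, allele or treatment of its own. Per the study's methods whole retinas were dissected and dissociated, whereas the label gives retinal progenitor cells, and the sources do not settle which cells were used. The list was called on 2 pooled libraries against 1 isotype control, after filtering on 113543038 and 9210563 tags, so no value has a replicate error. All intervals below are taken over peaks or genes of this list and cover counting error only. A promoter peak was present at 13 of 13 retinal progenitor genes looked up and at 8 of 11 early neuronal genes, against 50.5% of all protein-coding genes. Of genes of other cells, 1 of 6 of the pigment epithelium (Pmel), 0 of 3 of the lens, 1 of 4 of endothelium (Kdr) and 0 of 6 of blood and microglia had one.

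Acetylation of lysine 27 of histone H3 is placed by the acetyltransferases CBP and p300 on nucleosomes that flank active promoters and enhancers. Long non-coding RNAs are transcribed by RNA polymerase II, as messenger RNAs are, but hold no long open reading frame. Many start close to the promoter of a protein-coding gene and run in the opposite direction, while others have a promoter of their own. Vertebrate promoters are often rich in CpG dinucleotides, and such promoters tend to be active in many cell types.

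The promoter windows of 8 lncRNAs are shown as examples of CpG-rich and CpG-poor starts, with and without a protein-coding neighbour, and not as a sample of the whole range. Each runs from 250 bp before to 50 bp after a TSS, 5′ to 3′ on the strand of the lncRNA, in mm9, and the capitals mark CpG dinucleotides. The peaks of the first 6 had no protein-coding TSS. 2700023E23Rik (RefSeq symbol Dancr), a snoRNA host known for keeping progenitors undifferentiated, had the highest fold enrichment among the peaks without one, and its window is chr5:74488858-74489157 on the plus strand. 1700020I14Rik (RefSeq symbol Oip5os1, also called Cyrano), a conserved RNA with a microRNA site, is at chr2:119419789-119420088 on the plus strand. Dleu2, the host of a pair of microRNAs that restrain the cell cycle, is at chr14:62301004-62301303 on the minus strand. Miat, a nuclear RNA of neurons and retinal precursors, is at chr5:112657919-112658218 on the minus strand. Malat1, an abundant RNA of nuclear speckles, is at chr19:5802591-5802890 on the minus strand. For Sox2ot, a gene whose transcription unit contains Sox2, the window is chr3:34563915-34564214 on the plus strand. It is at the annotated start nearest the middle of the peak, which need not be the start of a transcript that spans Sox2. The windows of 4933421O10Rik, at chr4:33118249-33118548 on the minus strand, and of Six3os1, at chr17:86017364-86017663 on the minus strand, represent the peaks with a protein-coding TSS. The start of Ube2j1 lies 93 bp from that of 4933421O10Rik and so within the window printed.
2700023E23Rik: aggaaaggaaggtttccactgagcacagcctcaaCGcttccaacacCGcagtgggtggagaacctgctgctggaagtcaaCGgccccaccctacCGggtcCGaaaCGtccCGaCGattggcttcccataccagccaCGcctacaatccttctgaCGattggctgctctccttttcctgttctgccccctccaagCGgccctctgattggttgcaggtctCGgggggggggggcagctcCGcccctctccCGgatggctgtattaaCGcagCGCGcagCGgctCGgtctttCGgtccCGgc
1700020I14Rik: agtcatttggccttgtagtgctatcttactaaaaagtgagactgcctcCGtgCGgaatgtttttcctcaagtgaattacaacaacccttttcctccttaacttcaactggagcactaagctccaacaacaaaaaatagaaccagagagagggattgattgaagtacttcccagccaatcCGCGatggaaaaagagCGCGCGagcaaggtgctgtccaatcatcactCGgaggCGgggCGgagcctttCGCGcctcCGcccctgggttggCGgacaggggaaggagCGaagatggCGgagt
Dleu2: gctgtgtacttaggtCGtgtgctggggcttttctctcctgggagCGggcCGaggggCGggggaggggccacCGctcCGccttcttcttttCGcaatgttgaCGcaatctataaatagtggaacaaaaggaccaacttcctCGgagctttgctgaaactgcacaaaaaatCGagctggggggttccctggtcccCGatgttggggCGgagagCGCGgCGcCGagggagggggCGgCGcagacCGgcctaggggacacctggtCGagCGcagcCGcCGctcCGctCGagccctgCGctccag
Miat: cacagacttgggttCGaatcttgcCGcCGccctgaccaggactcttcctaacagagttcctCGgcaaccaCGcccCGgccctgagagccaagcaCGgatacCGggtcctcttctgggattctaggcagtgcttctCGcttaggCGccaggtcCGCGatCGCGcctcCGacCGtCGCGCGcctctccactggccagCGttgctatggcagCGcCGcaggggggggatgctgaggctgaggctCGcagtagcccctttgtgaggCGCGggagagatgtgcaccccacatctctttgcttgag
Malat1: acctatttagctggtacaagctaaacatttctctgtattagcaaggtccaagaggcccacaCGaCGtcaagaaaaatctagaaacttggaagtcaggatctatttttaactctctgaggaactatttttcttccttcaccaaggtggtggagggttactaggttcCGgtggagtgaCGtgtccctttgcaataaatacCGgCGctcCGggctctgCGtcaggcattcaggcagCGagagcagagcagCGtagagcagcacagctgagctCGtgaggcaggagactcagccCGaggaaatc
Sox2ot: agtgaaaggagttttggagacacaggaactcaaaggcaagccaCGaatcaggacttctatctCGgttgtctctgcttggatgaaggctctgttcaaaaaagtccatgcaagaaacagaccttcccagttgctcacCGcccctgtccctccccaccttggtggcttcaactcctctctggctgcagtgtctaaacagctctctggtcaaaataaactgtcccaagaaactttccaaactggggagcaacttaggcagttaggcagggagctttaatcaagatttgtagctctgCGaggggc
4933421O10Rik: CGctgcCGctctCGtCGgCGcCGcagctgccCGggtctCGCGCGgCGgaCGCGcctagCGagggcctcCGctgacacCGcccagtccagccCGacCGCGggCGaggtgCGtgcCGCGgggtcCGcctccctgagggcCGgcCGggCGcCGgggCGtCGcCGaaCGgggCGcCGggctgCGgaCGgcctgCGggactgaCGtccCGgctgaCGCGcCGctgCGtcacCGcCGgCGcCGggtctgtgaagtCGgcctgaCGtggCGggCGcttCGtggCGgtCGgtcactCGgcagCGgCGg
Six3os1: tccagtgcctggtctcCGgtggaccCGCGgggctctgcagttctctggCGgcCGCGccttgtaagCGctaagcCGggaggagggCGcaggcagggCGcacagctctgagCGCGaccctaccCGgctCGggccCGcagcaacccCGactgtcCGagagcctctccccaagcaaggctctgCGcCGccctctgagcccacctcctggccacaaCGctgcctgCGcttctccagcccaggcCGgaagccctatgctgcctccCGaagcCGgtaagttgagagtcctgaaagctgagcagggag

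The windows differed widely in CpG content. That of 4933421O10Rik held 57 CpGs at a GC content of 80.3%, and those of Dleu2, Miat, Six3os1, 2700023E23Rik and 1700020I14Rik held 16 to 26. Malat1 held 12. Sox2ot held 4, with a ratio of observed to expected CpG of 0.217. The 8 were picked among lncRNAs with a peak, so they do not show how often such starts carry the mark.

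The question asked first of the peaks was how strong and how broad the mark was at lncRNA promoters with and without a neighbouring protein-coding start. Peaks with a protein-coding TSS had a median fold enrichment over the local background of the isotype control of 4.84 (95% interval 4.72 to 4.98), against 4.17 (4.0 to 4.32) for those without. The median over all 13079 peaks was 4.46. Peaks at protein-coding starts with no lncRNA had a median of 4.71, and peaks at neither kind of start had 3.79. The interval of the lncRNA peaks without a protein-coding TSS thus lay below that of the peaks with one and above the median of peaks at neither kind of start. The classes overlapped broadly, and 51 of the 193 peaks, or 26.4%, exceeded the median of the peaks with a protein-coding TSS. No test was run, because peaks of 1 list are not replicates.

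**Figure D1:**
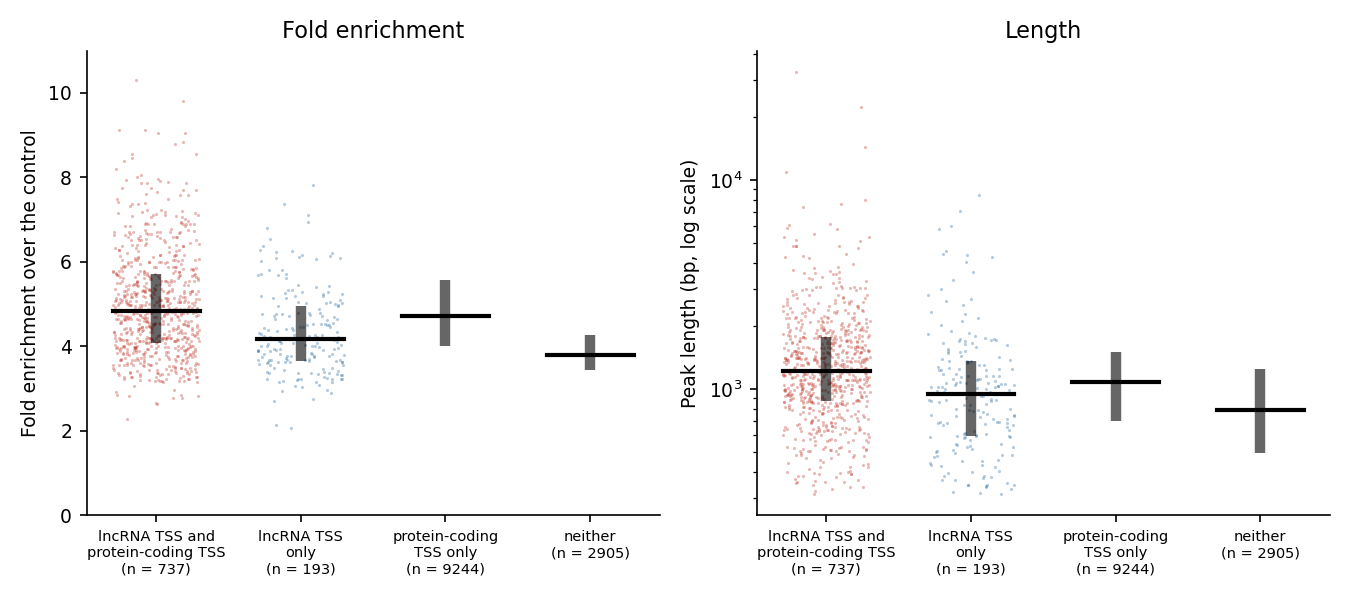
Fold enrichment (left) and length in bp on a log scale (right) of E14 H3K27ac peaks by class. Points are the 930 lncRNA promoter peaks, vertical bars run from the first to the last quartile and horizontal lines are medians; the median fold enrichment was 4.84 with a protein-coding TSS, 4.17 without, 4.71 at protein-coding starts alone and 3.79 at neither.

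The pileup, the mean tag coverage of a peak after scaling to the control library, followed the same order. It was 16.6 at the median for peaks with a protein-coding TSS, 13.3 for those without, 16.4 for protein-coding starts alone and 10 for peaks at neither. The local background differed as well. The pileup divided by the fold enrichment had medians of 3.32, 3.02, 3.34 and 2.58 in the same classes, and its part in the differences of fold enrichment was not tested. A stricter limit (fold enrichment from 4 upwards, q not above 0.001) was passed by 64.1% of all peaks. Of the peaks with a protein-coding TSS 560, or 76.0% (72.8 to 78.9%), passed, close to the 73.8% of peaks at protein-coding starts alone. Of those without, 107 passed, or 55.4% (48.4 to 62.3%), below the share of all peaks and above the 30.7% of peaks at neither start.

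Peaks with a protein-coding TSS were 1215 bp long at the median (1164 to 1306 bp) and those without 944.0 bp (837.0 to 1029 bp), against 1021 bp over all peaks. A longer peak reaches more starts, so length is not independent of the class. The GC content of the peak sequence was 61.9% with and 57.3% without a protein-coding TSS, and the ratio of observed to expected CpG was 0.764 and 0.640. Peaks at neither start had 53.4% and 0.340. By sequence, fold enrichment and length, the peaks at isolated lncRNA promoters lay between those at protein-coding promoters and those at neither kind of start.

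The mark was then counted over genes rather than peaks. Of 3669 lncRNA genes 952, or 25.9% (24.6 to 27.4%), had a peak, while 50.5% of the 21418 protein-coding genes did. The share depended on the annotated type. It was 49.4% for 1232 lincRNA genes and 14.1% for 2437 processed_transcript genes. Among the 1345 genes with an antisense transcript, 246 had a peak, or 18.3%.

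The share also differed between genes with and without a protein-coding start nearby, in both types. Of 1095 lncRNA genes with a protein-coding TSS within 1000 bp of one of their own, 696 had a peak, or 63.6% (60.7 to 66.4%). Of the 2574 genes with none, 256 had a peak, or 9.95% (8.85 to 11.2%). Within lincRNA genes the shares were 74.9% and 24.2%, and within processed_transcript genes 49.2% and 5.42%. The reverse also held: 71.9% of the 1093 protein-coding genes with a lncRNA TSS within 1000 bp had a peak, against 49.3% of the others. A peak within 1000 bp of both starts counts for both genes, so for neighbours these shares do not show which gene the mark belongs to. Of the 256 isolated lncRNA genes with a peak, 56 had a peak that reached a protein-coding TSS all the same.

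**Figure D2:**
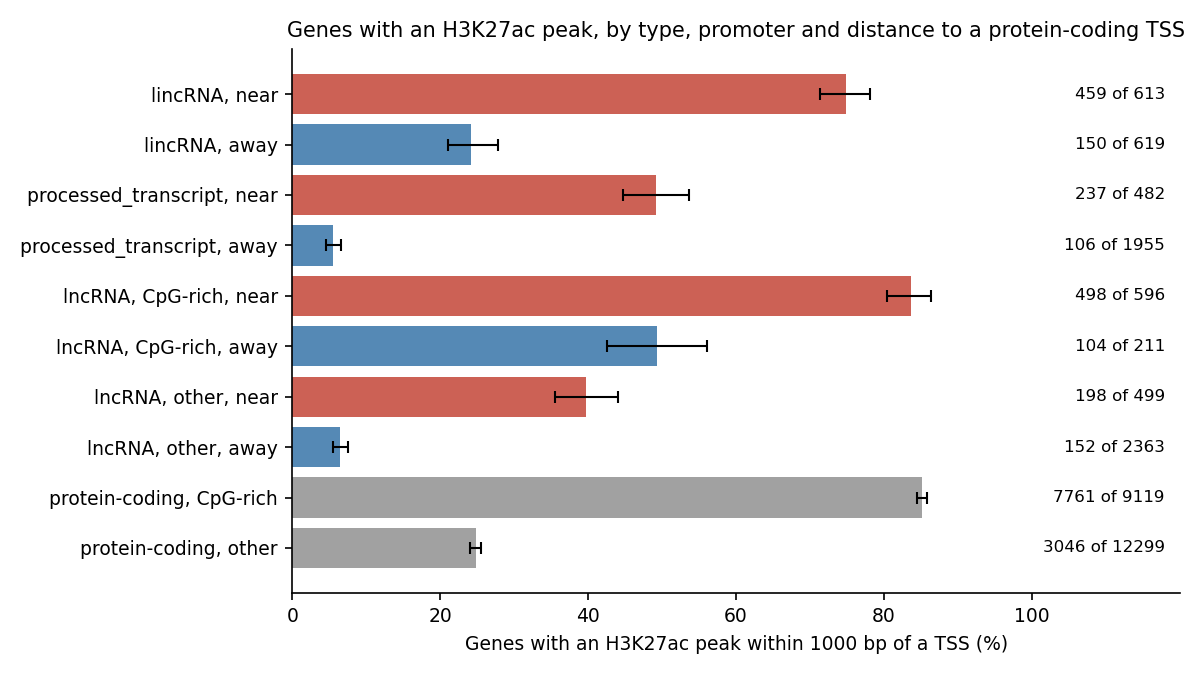
Share of genes, in percent, with an H3K27ac peak within 1000 bp of a TSS, by gene type, promoter sequence and presence (near) or absence (away) of a protein-coding TSS within 1000 bp. Bars are shares, error bars 95% Wilson intervals and counts are printed at the right; the share was 83.6% for CpG-rich lncRNA promoters near a protein-coding TSS and 6.43% for other lncRNA promoters away from one.

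Promoter sequence was compared in the 300 bp window at the most upstream TSS of each gene, called CpG-rich when its GC content was over 50% and its CpG ratio over 0.6. Of lncRNA genes away from protein-coding starts, 211 had such a promoter and 104 of these had a peak, or 49.3% (42.6 to 56.0%). Of the 2363 with another promoter, 152 had one, or 6.43% (5.51 to 7.49%). Near a protein-coding TSS the shares were 83.6% (80.4 to 86.3%) and 39.7% (35.5 to 44.0%), and for protein-coding genes 85.1% and 24.8%. CpG-rich lncRNA promoters next to a protein-coding start thus had a peak about as often as CpG-rich protein-coding promoters. Such a peak may be that of the neighbour, since a peak counts for every start within 1000 bp. The share of isolated CpG-rich lncRNA promoters was lower, with intervals that did not overlap.

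Short motifs were searched on both strands of the same windows at the most upstream start of each gene, in genes with and without a peak. The GC box GGGCGG, which is bound by SP factors, was in 43.4% of isolated lncRNA promoters with a peak and 11.2% of those with none, and near a protein-coding start in 62.9% and 28.8%. It was in 25.2% of all 3669 lncRNA promoters and 43.7% of the protein-coding ones. The TATA box TATAAA was in 8.59% and 14.4% of the isolated promoters and in 4.89% and 10.5% of the others, against 11.8% of all lncRNA and 13.5% of all protein-coding promoters. The CCAAT box was in 39.1% and 35.8%, and in 33.0% and 34.6%, against 35.4% and 37.6%. The CRE element TGACGTCA was in 3.91% and 0.863%, and in 3.45% and 0.752%, against 1.55% and 2.31%. The E box CACGTG was in 7.42% and 5.35%, and in 7.18% and 7.02%, against 6.02% and 7.78%. The homeodomain core TAATTA, of the kind that LHX2 binds, was in 5.47% and 7.16%, and in 1.87% and 4.26%, against 5.72% and 4.84%. These shares depend on the start that is read, and at the lncRNA start nearest the middle of each peak without a protein-coding TSS the last motif was in 3.11% of windows and the GC box in 50.8%. The GC box, the CRE and this E box each hold a CpG and so go with CpG content, and a match is only the presence of the letters.

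Peaks with a protein-coding TSS were grouped by the nearest pair of lncRNA and protein-coding starts. In 447 of the 737, or 60.7%, the pair was divergent, with both genes transcribed away from each other. The median distance between these starts was 134 bp, and 307 pairs lay within 200 bp. In 260 peaks, or 35.3%, the lncRNA began downstream of the protein-coding start on the opposite strand, at a median of 398 bp. In 30 peaks, or 4.07%, both ran on the same strand. The median fold enrichments were 4.95 (4.74 to 5.07), 4.77 (4.62 to 4.92) and 4.45 (4.07 to 5.19), with intervals that overlapped. Counted over genes, 443 of 643 divergent lncRNAs had a peak, or 68.9% (65.2 to 72.4%), against 57.3% (52.4 to 62.1%) of 398 on the opposite strand inside the gene and 46.3% (33.7 to 59.4%) of 54 on the same strand. Promoters were CpG-rich in 67.5%, 36.9% and 27.8% of these genes, and the part of sequence in the difference was not tested.

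**Figure D3:**
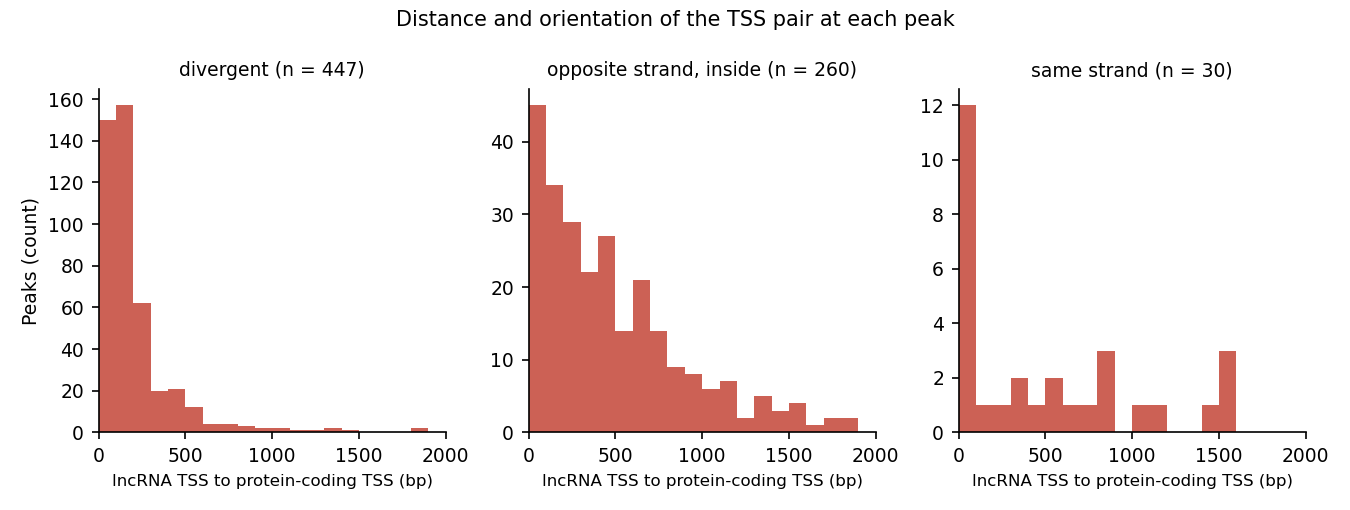
Distance in bp between the nearest lncRNA and protein-coding starts at each of the 737 peaks with both, by relative orientation, in bins of 100 bp. Bars are counts of peaks, and 8 pairs at 2000 bp or more are not drawn; divergent pairs were concentrated at short distances, with a median of 134 bp.

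Where a peak covered both starts of a divergent pair, it reached farther into the protein-coding gene than into the lncRNA gene. This was measured in 338 peaks. The peak extended a median of 728 bp (678 to 781 bp) past the protein-coding start and 441 bp (415 to 482 bp) past the lncRNA start. The median difference within a peak was 280 bp (232 to 322 bp), and the reach was longer on the protein-coding side in 253 peaks, or 74.9% (70.0 to 79.2%). At peaks without a protein-coding TSS the 2 directions could be compared from the lncRNA start alone. In the 147 that covered it, the peak extended 520 bp downstream (440 to 604 bp) and 480 bp upstream (400 to 535 bp), and the downstream reach was the longer in 82, or 55.8% (47.7 to 63.6%).

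**Figure D4:**
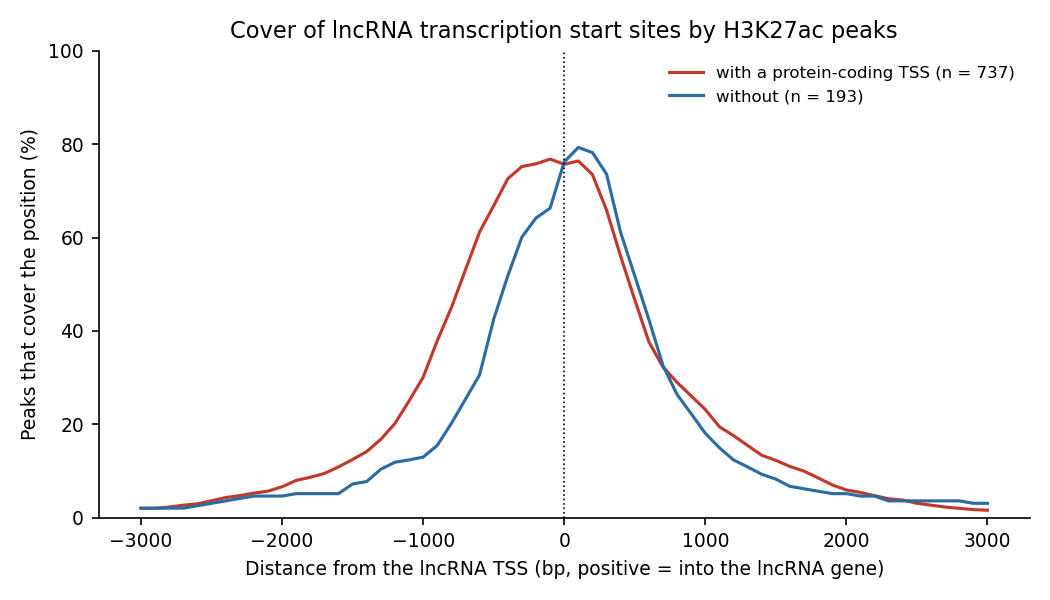
Share of lncRNA promoter peaks, in percent, that cover each position around the lncRNA TSS nearest the middle of the peak, with positive distances in bp into the lncRNA gene. At the start itself 75.7% of the 737 peaks with a protein-coding TSS and 76.2% of the 193 without covered it, while 500 bp upstream the shares were 66.8% and 42.5%.

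The start of the lncRNA lay inside the peak in about the same share of both classes, 558 of 737 peaks (75.7%) with a protein-coding TSS and 147 of 193 (76.2%) without. The surroundings differed. The middle of the peak lay downstream of the lncRNA start in 35.5% (32.2 to 39.1%) of the peaks with a protein-coding TSS, at a median offset of -141 bp (-173 to -108 bp). Without one it lay downstream in 56.5% (49.4 to 63.3%), at a median of 57.0 bp (0 to 103 bp). In a divergent pair the protein-coding start lies upstream of the lncRNA, and a peak had to reach near it to enter the class, so part of this shift follows from how the classes were made.

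The 193 peaks without a protein-coding TSS were mostly outside protein-coding genes. There were 161 of these, with 22 in introns and 10 in exons, and the medians of fold enrichment were 4.19, 4.18 and 4.06. The nearest protein-coding TSS was 18981 bp away at the median, from 1200 to 734801 bp. The median fold enrichment was 3.91 for 27 peaks with a protein-coding TSS within 5000 bp, 4.29 for 74 at 5000 to 20000 bp, 4.19 for 73 at 20000 to 100000 bp and 3.90 for 19 beyond that, with no steady rise or fall. Gene models change between annotations, and 19 of the 193 peaks lay only at genes whose symbols RefSeq classes as protein-coding. Of the 204 lncRNA genes at the 193 peaks 61 had no match in RefSeq, so the 19 rests on matched genes only.

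Among the peaks without a protein-coding TSS, the highest fold enrichment was at 2700023E23Rik (chr5:74489041-74489913), at 7.81 with a pileup of 22.2. The peak lies 24586 bp from the nearest protein-coding start, that of Usp46. Next came Gm17494 (chr3:121995598-121997434) at 7.36, and Gm9530 (chr1:156929775-156931278) at 7.12. The peak at Enho and Gm12406 (chr4:41586698-41587393) had 6.95. Enho encodes the secreted peptide adropin and is classed as protein-coding in RefSeq. Gm17716 (chr14:26197507-26198755) had 6.81 and lay 79916 bp from the start of Zmiz1, a coactivator gene. The promoter of Gm17716 was not CpG-rich, unlike those of the other 4.

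At the low end were 2610005L07Rik (chr8:20019551-20020299), with a fold enrichment of 2.06, and 6820431F20Rik (chr8:19892264-19892769), with 2.15. Both had the highest pileups of the 930 peaks, 40.2 and 37.9, so that their low enrichment came with a high local background. Zfp133-ps (chr2:144284782-144285234) followed with 2.70 and a pileup of 12.2. The longest peaks of the class were at 4930578M01Rik (chr15:98813714-98822215, 8502 bp), Gm14488 (chr2:30571956-30579058, 7103 bp) and 2810410L24Rik (chr11:120045604-120051650, 6047 bp), with fold enrichments of 3.93, 3.22 and 5.0. None of these 3 was among the 5 peaks of highest fold enrichment.

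Among the peaks with a protein-coding TSS, the highest fold enrichment was 10.3, at 4933421O10Rik and Ube2j1 (chr4:33117726-33119247). Ube2j1 encodes a ubiquitin-conjugating enzyme of the endoplasmic reticulum. The next was 4930583K01Rik with Smg1, the kinase of nonsense-mediated decay (chr7:125386329-125387204), at 9.82. A630052C17Rik with Smek2 (chr11:29072467-29073883) had 9.13 and D130020L05Rik with Smek1 (chr12:102320593-102322506) had 9.06, and both partners encode regulatory subunits of the same protein phosphatase. C130060C02Rik shared a peak of 9.13 with Cep78, a centriolar protein gene (chr19:16058747-16059527).

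The 3 longest peaks of the class were at the homeobox genes Pax6, Six3 and Meis1. The peak at Pax6os1 and Pax6 (chr2:105498978-105531842) was 32865 bp long with a fold enrichment of 4.44, the longest of all 13079. That at Six3os1 and Six3 (chr17:86005698-86028044) was the second, at 22347 bp with 4.72. Gm16141 and Meis1 (chr11:18907312-18921752) followed at 14441 bp with 5.47. The lowest fold enrichments were at Gm13307 (chr4:41812629-41813285), with 2.28 and a pileup of 25.1, at Gm14341 with Nkain4 (chr2:180688148-180689318), with 2.63, and at 5033403F01Rik with Slc35b3 (chr13:39052077-39052747), with 2.67.

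Of the 24 retinal progenitor and early neuronal genes that served as markers, 5 shared a peak with a lncRNA, or 20.8%, against 3.56% of the 21418 protein-coding genes. Besides Pax6 and Six3 these were Rax, the retinal homeobox gene, with Raxos1 (6096 bp, fold enrichment 4.25), Fgf15, a growth factor gene, with Gm17685 (4842 bp, 3.91), and Hes5, a Notch target, with RP24-89N4.5 (2421 bp, 5.59). By the nearest pair of starts, all 5 lncRNAs began on the opposite strand downstream of a protein-coding start. Their fold enrichments were on both sides of the median of all peaks, 4.46, and all 5 lengths were above the median of 1021 bp. Only a gene with a peak can share one, so 20.8% and 3.56% do not compare like with like. Of the markers 13 of 13 and 8 of 11 had a peak. Of the 21418 genes 10807 had one, and 763 of these shared it with a lncRNA. A longer peak also reaches more starts.

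Known lncRNAs were looked up in lists by their roles. Of 41 found by their names in the annotation 26 had a peak, 15 of them at peaks without a protein-coding TSS and 11 at peaks with one. For comparison 25.9% of all lncRNA genes had a peak, and the lists hold well-studied RNAs. Many lncRNAs have other names in RefSeq, and matching by either name gave 74 of 198, most of the added ones being named after a gene on the opposite strand. In the list of retinal and forebrain lncRNAs 12 of 25 names were in the annotation, and 9 had a peak. By either name it was 11 of 16, and the added lncRNAs with a peak were A930011O12Rik (Mir124a-1hg, 4.46) and Gm13476 (Zeb2os, 5.11).

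Several had no protein-coding start at the peak. Miat (chr5:112653855-112658255) had a fold enrichment of 5.27 over 4401 bp and a nearest protein-coding start 21927 bp from the peak. Rmst, a neural RNA known to bind the SOX2 protein, had 4.88 over 3306 bp, in a peak shared with the lncRNA gene Gm17341, 557195 bp from the nearest protein-coding start, that of Nedd1. Sox2ot (chr3:34561820-34565886) had 4.39 over 4067 bp, and its peak lay 12762 bp from the start of Sox2. Tug1, which is needed for photoreceptor formation, instead shared its peak with Morc2a (chr11:3548276-3549782), at 5.53.

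Others lay on the strand opposite a homeobox gene. Besides Pax6os1, Six3os1 and Raxos1, Vax2os1 of the ventral retina (chr6:83660241-83666140) had 3.60 over 5900 bp, and Dlx1as (chr2:71366744-71368398) had 4.18. The start of Dlx1as was outside the peak, 760 bp away. Dlx6os1, Emx2os and Meg3 had no peak, and the nearest lay 85988, 112110 and 31389 bp from a start. Of 17 lncRNAs whose symbol in the annotation ends in os, in os and a digit, or in as, for opposite strand or antisense, 8 had a peak. Counting those with such a symbol in RefSeq as well, 52 of 162 had one, or 32.1%, against 25.9% of all lncRNA genes. Of the 52, 47 were at peaks with a protein-coding TSS, as were 750 of all 952 lncRNA genes with a peak. None of 9 listed lncRNAs of the Hox clusters, matched by either name, had a peak.

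**Figure D5:**
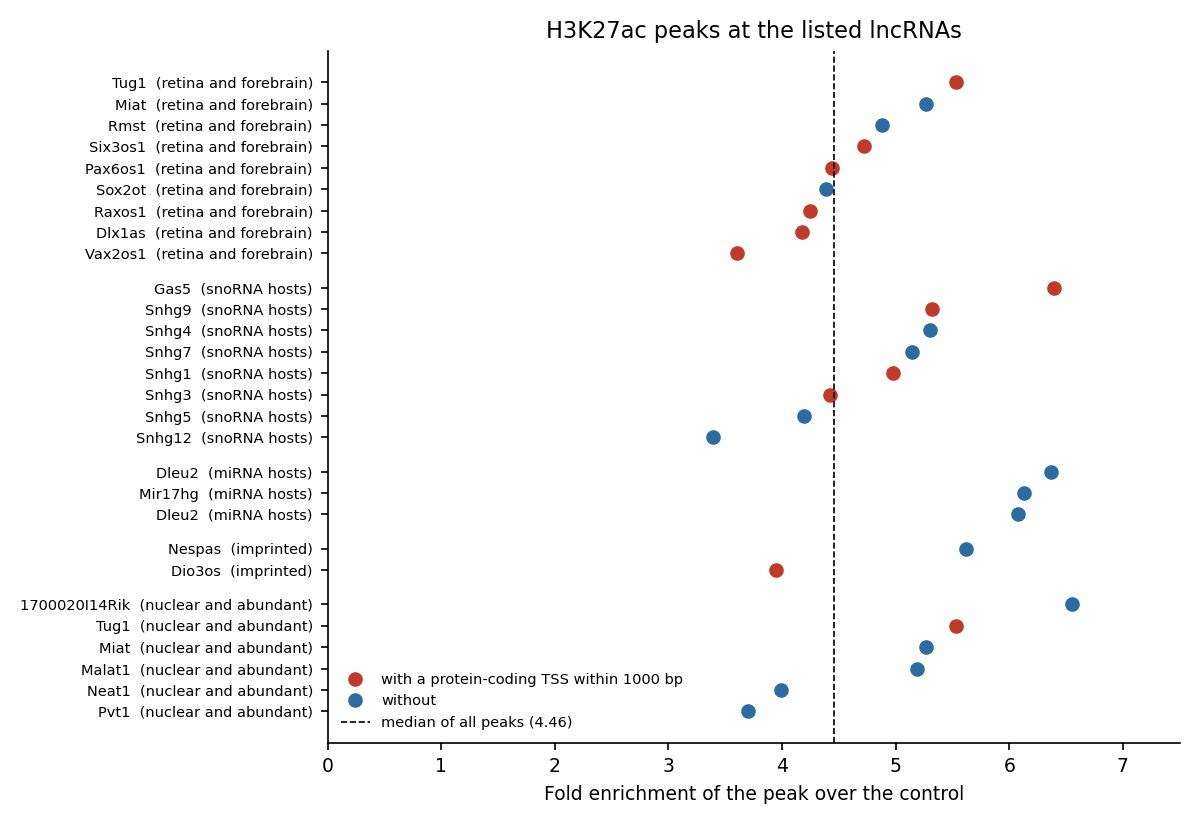
Fold enrichment over the control of the H3K27ac peak of each listed lncRNA with a peak, by list, in red with and in blue without a protein-coding TSS within 1000 bp, for names in the annotation. The dashed line is the median of all peaks, 4.46; the values ran from 3.39 at Snhg12 to 6.55 at 1700020I14Rik, and Dleu2 appears once for each of its 2 peaks.

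The 8 listed hosts of small nucleolar RNAs found by their names in the annotation each had a peak, between 3.39 and 6.39 with a median of 5.06. RefSeq symbols added Gm11974 (Snhg15) with 4.55, 9430008C03Rik (Snhg17) with 5.72 and 2810008D09Rik (Snhg20) with 3.83, all without a protein-coding TSS. The list is not complete, since 2700023E23Rik, described above, is also a host and was not on it. These genes carry in their introns the snoRNAs that guide the modification of ribosomal RNA. Gas5 (chr1:162964302-162967101), 80 bp from the start of Zbtb37, had 6.39. Snhg9 had 5.32 next to the ribosomal protein gene Rps2, Snhg1 4.98 next to Slc3a2, and Snhg3 4.42 at 28 bp from Rcc1. The other 4 of the 8 had no protein-coding TSS: Snhg4 with 5.30, Snhg7 with 5.14, Snhg5 with 4.19 and Snhg12 with 3.39.

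Of 3 microRNA hosts found by their names in the annotation, 2 had a peak, both without a protein-coding TSS. By RefSeq symbols too it was 4 of 8, with 2210403K04Rik (Mir22hg), at 4.07 beside a protein-coding start, and A930011O12Rik (Mir124a-1hg), at 4.46 without one. Dleu2 had 2 peaks, at separate starts, with fold enrichments of 6.37 (chr14:62299867-62301977) and 6.08 (chr14:62266184-62268195). Mir17hg, the host of an oncogenic microRNA cluster, had 6.13 (chr14:115439611-115441944), with its annotated start 157 bp outside the peak. Dleu2 was 1 of 6 lncRNA genes with 2 peaks. The others were A830082K12Rik next to Nr2f1, BC028777 next to Ntn3, D230017M19Rik, Gm12905 and Gm15417, and no lncRNA had more than 2.

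Of the imprinted lncRNAs, 2 of 8 had a peak. The 2 were Nespas in the Gnas locus (chr2:174119906-174120926), at 5.62, and Dio3os at Dio3 (chr12:111515770-111517170), at 3.95. H19, Airn, Nctc1 and the Meg3, Rian and Mirg cluster on chromosome 12 had none, and the nearest peak was 24755 to 225369 bp from a start. An absent peak means only that none passed the caller, since the control limits what can be seen and allelic expression was not measured here.

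In the nuclear and abundant list 6 of 12 names, some of them alternatives for the same RNA, were in the annotation. All 6 lncRNAs found had a peak. 1700020I14Rik (chr2:119419963-119420647) had 6.55 over 685 bp, the highest of the listed lncRNAs found by their names in the annotation. Malat1 (chr19:5798743-5804570) had 5.19 over 5828 bp, and Neat1, the scaffold of paraspeckles (chr19:5845075-5847708), had 3.99 over 2634 bp. Pvt1 (chr15:61869339-61869928), had 3.70 over 590 bp with the nearest protein-coding start, that of Myc, 50362 bp from the peak. Thus 5 of these 6 lncRNAs, all but Tug1, carried H3K27ac at a promoter with no protein-coding start beside it.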

How the data were processed

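H3K27ac was profiled by ChIP-Seq in mouse retina at E14, from 2 pooled libraries and 1 isotype control. Alignment by the authors was to mm9 with Bowtie2, and they used MACS 2.1.0.20140616 in broad mode, with a broad cutoff of 0.1 and at most 1 tag per position. Per the file headers, the ChIP signal was scaled down to the control, and 113543038 ChIP and 9210563 control tags remained after filtering, 12.3 ChIP tags for each control tag. The deposited pileup signal, fold enrichment (a ratio of ChIP pileup to local background) and -log10 p and q values are means over each region, so a long peak has its height averaged. Without replicates no replicate error can be given.

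Peaks were matched to transcript starts of GENCODE vM1 on mm9, which the assembly used here fits, with all peaks inside its chromosomes. RefSeq (GRCm38.p6) was used for current symbols and gene classes only, and no positions were converted. Shares have 95% Wilson intervals and medians exact binomial intervals. No test was run, since peaks of 1 list are not replicates. The base composition was read from the genome. Named peaks were the 5 of highest and 3 of lowest fold enrichment and the 3 longest of each class, and the lncRNAs of lists by role, matched by GENCODE symbol and, as an addition, by RefSeq symbol. The members and lists were chosen with earlier results of these data known, and the 8 sequences after the values were seen. Alternatives were other windows, starts, gene types, limits and chromosomes. The matching and the intervals were tested on simulated data. Scripts ran in Python 3.11.15 with scipy 1.17.1, matplotlib 3.10.9 and numpy 2.4.6. The other samples were not analysed here.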

Additional observations from a re-analysis of the deposited data

Results flagged for a closer look

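The X and Y chromosomes lie outside the comparisons above, and a signal was found there too. On the X chromosome 38 lncRNA promoter peaks were found among 381 peaks, and 20 of them had no protein-coding TSS within 1000 bp. That is a larger share than the 20.8% (18.3 to 23.5%) on chromosomes 1 to 19. Of 176 lncRNA genes on the X chromosome 38 had a peak, or 21.6% (95% Wilson interval 16.2 to 28.2%). This interval contains the 25.9% of chromosomes 1 to 19. The median fold enrichment was 4.55, from 3.41 to 8.39. The highest was at Gm10474, which shares its peak with Fmr1, the gene of an RNA-binding protein of synapses (chrX:65931345-65932822), followed by Gm15246 with Hccs, a mitochondrial enzyme gene, at 7.16. The Y chromosome had 3 peaks, and none was at a lncRNA promoter.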

How the results depend on the processing

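Peaks with a protein-coding TSS had the higher median fold enrichment and the greater median length under all 13 alternatives, with a difference of 0.42 to 0.76 in fold enrichment. With lincRNA genes only (no gene has the type antisense) there were 605 peaks, 114 of them without a protein-coding TSS. The share of genes with a peak was then 49.4%, the share of peaks without a protein-coding TSS past the stricter limit 63.2% and their median fold enrichment 4.33. With stricter peaks only, 107 had no protein-coding TSS and 18.5% of genes had a peak. The median fold enrichments were then 5.20 with and 4.78 without, and the median lengths 1368 and 1069 bp. Fewer peaks enter under either choice. The share of genes with a peak was 27.7% with windows of 2000 bp and 23.6% with the peak middle in the window. CpG-rich promoters away from protein-coding starts had a peak in 56.3% of cases with a stricter definition of CpG-rich, chosen after seeing the data. Between 19 and 26 of the listed lncRNAs had a peak under the alternatives run, and 74 when names were matched through RefSeq as well, chosen after seeing the data and with more genes tested. Leaving out peaks of either class whose lncRNA genes are all protein-coding in RefSeq, or peaks of high local background, both chosen after seeing the data, moved no median or count beyond its limits. Merging peaks less than 1000 bp apart changed nothing, since the smallest gap was 1254 bp. No paired analysis was possible because the peaks were called on pooled libraries. The control has the lower depth and limits what can be called, and a gene with no peak may still carry the mark.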

Other observations

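Some long peaks beyond the named ones were picked here after their values were seen, and they stand for no class of genes. Among them were 2900052L18Rik and Gm11772 with Bahcc1 (10960 bp, fold enrichment 5.13), 2610035F20Rik with Zic2, a zinc-finger gene of retinal ganglion cells (6167 bp, 5.17), Gm12063 with Bcl11a (5817 bp, 4.34), 2610027K06Rik with Tbx2, a T-box gene of the dorsal eye (5515 bp, 4.56), and Gm4577 with Ddr1, a collagen receptor gene (5315 bp, 4.62). Those of Bahcc1, Zic2 and Tbx2 lay in divergent pairs, that of Bcl11a on the same strand and that of Ddr1 inside the gene on the opposite strand. Without a protein-coding TSS, C130071C03Rik (2815 bp, 4.19) and Gm17547 (3623 bp, 4.26) had peaks 213232 and 205159 bp from the start of Mef2c, a MADS-box gene of neurons. A830082K12Rik next to Nr2f1, an orphan nuclear receptor gene, had 1 peak that reached the start of Nr2f1 (2610 bp, 4.91) and another that did not (2699 bp, 4.77).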
